A study of Mus musculus with 6 samples.

Results

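The 10 genes described here carry the insulin signal in an adipocyte from the cell surface to glucose entry: Insr, Irs1, Irs2, Pik3r1, Akt1, Akt2, Tbc1d4, Slc2a4, Slc2a1 and Foxo1. They were taken by symbol, in a choice made with earlier results of these data known, and all 10 were found among the 35122 genes counted and passed the filter on low counts that left 13925 genes for testing. RNA was sequenced from adipocytes that were freed from epididymal fat with collagenase and collected as the top layer after centrifugation, from male C57BL/6 mice kept on standard chow. The labels give their age as 10 to 11 months, while the text of the study describes the sequenced mice as older. The 3 control mice were PU.1 fl/fl, that is, homozygous for a Spi1 allele with loxP sites around 1 exon and without Cre. The 3 aPU.1KO mice carried the same floxed alleles together with AdipoqCre, a Cre transgene driven by the adiponectin promoter, which is active in adipocytes and so leaves PU.1 intact in other cell types. The question put to these genes was whether their mRNA levels differed between adipocytes with and without PU.1, an ETS-family transcription factor best known from myeloid cells.

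Insulin binds its receptor, which phosphorylates the insulin receptor substrates, and these recruit phosphoinositide 3-kinase. The lipid it makes brings Akt to the membrane, where Akt is activated and phosphorylates the Rab GTPase-activating protein AS160, so that vesicles holding the transporter GLUT4 move to the cell surface. Akt also phosphorylates FoxO1 and keeps it out of the nucleus, and fat cells are known for using this route to take up glucose after a meal.

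Of the 10 genes, 9 were higher in aPU.1KO than in control adipocytes and Akt1 was lower, and none passed edgeR's quasi-likelihood test at a Benjamini-Hochberg adjusted p under 0.05. The median log2 fold change over the 10 genes was 0.35, a fold of 1.27, against 0.01 over all 13925 genes tested. The largest difference was that of Slc2a4, which encodes GLUT4, with a fold of 1.58, and it was followed by Irs2 and Irs1. In 3 genes, Slc2a4, Irs2 and Akt2, every aPU.1KO mouse lay above every control mouse. The adipocyte markers were higher by a similar amount in the same libraries, with a median log2 fold change of 0.33 over 10 marker genes, and that comparison is given after the single genes.

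The 6 libraries held 20550252 to 24310144 counts each, except control mouse 1 with 69283842, and the lowest count of any of the 10 genes in any library was 274. Levels are given as CPM, counts per 1000000 after TMM scaling of the library sizes, and log2 fold changes and standard errors (SE) are those of the edgeR fit. The deleted gene, Spi1, lay at 6.35 to 26.7 CPM in control and at 1.22 to 4.17 CPM in aPU.1KO mice, with a log2 fold change of -2.75 (SE 0.64) and an adjusted p of 0.0788 in edgeR and 7.65e-05 in DESeq2. Spi1 was counted over the whole gene, so these counts are not specific to the floxed exon, and the part of non-adipocytes, in which AdipoqCre leaves Spi1 intact, was not tested. Among all genes tested, 0.0575% were called higher and 0.18% lower in aPU.1KO by edgeR, 11.9% were higher and 13.7% lower with an unadjusted edgeR p under 0.05, and 16.7% were higher and 15.5% lower with no overlap between the groups. DESeq2 was fitted to all genes counted, and of the 16684 genes to which it gave an adjusted p it called 3.51% higher and 7.48% lower. Of the 10 genes, edgeR called 0, 4 higher and 0 lower genes had an unadjusted p under 0.05, DESeq2 called 1 higher and 0 lower, and 3 were higher and 0 lower without overlap.

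**Figure D1:**
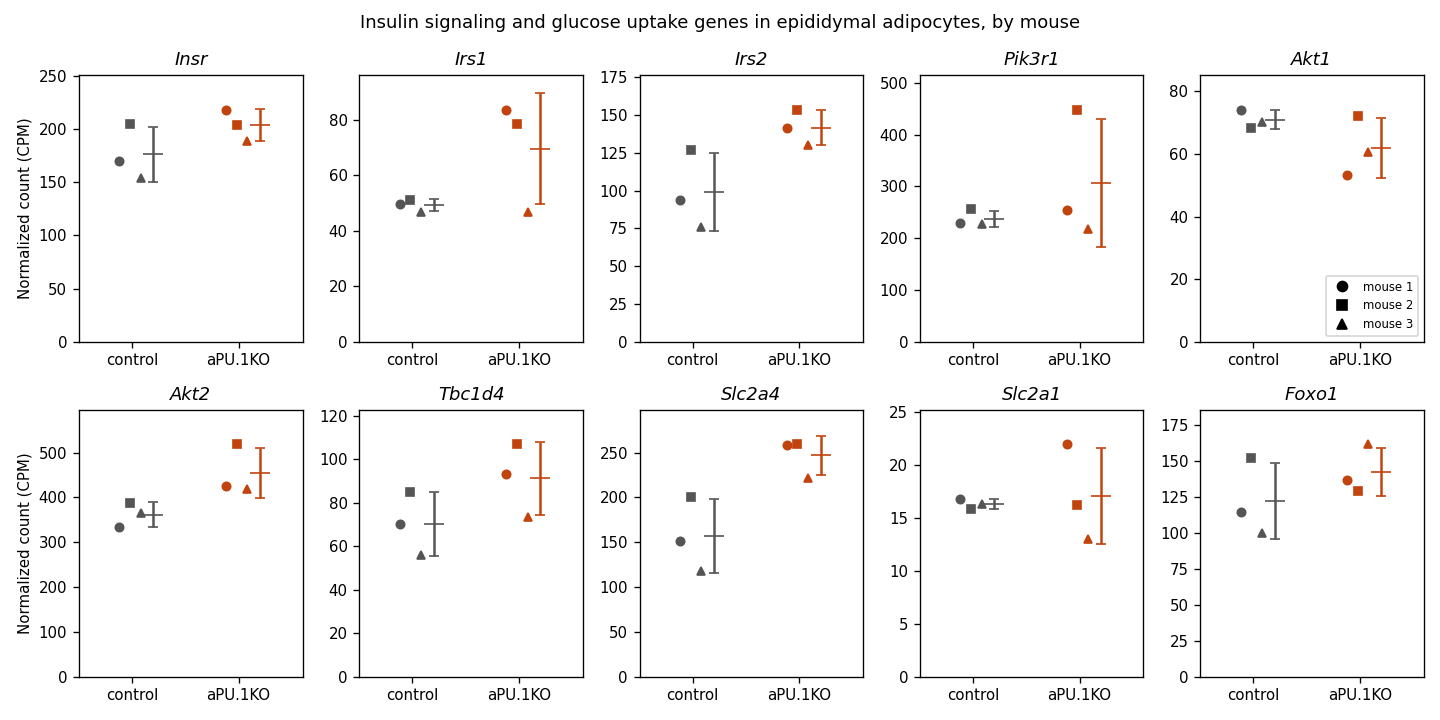
Normalized counts (CPM, linear axes starting at 0) of the 10 genes in the 3 control mice (grey) and the 3 aPU.1KO mice (orange), with a symbol for each mouse and the group mean and SD to the right of the points. Slc2a4, Irs2 and Akt2 are the genes whose groups did not overlap, and control mouse 2 was the highest control in 8 of the 10 panels.

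The sequence upstream of the start site was read for the genes present in the RefSeq promoter table (GRCm38.p6), which gave 13 windows of 250 bases for 8 of the 10 genes. Both strands were searched for GAGGAA, the core of the PU box that PU.1 and other ETS factors recognise, for the E-box CACGTG, for the GC box GGGCGG and for the CCAAT box. The PU box letters were found in 1 of the 13 windows, at start 4 of Akt2, while 23.3% of all 32851 windows in the table hold them. CACGTG was found in 2 of the 13 windows, those of the receptor substrate genes Irs1 and Irs2, and in 6.02% of all windows. GGGCGG was found in 8 of the 13 windows, against 32.7% of all windows, and CCAAT in 3 of the 13, against 33.8%. A match of letters is a description and not a binding site. The 3 windows are shown because Irs1 and Irs2 share the E-box and Akt2 holds the only PU box letters of the set, with the match in capitals:
Irs1, chr1:82291440-82291689, minus strand, CACGTG in capitals: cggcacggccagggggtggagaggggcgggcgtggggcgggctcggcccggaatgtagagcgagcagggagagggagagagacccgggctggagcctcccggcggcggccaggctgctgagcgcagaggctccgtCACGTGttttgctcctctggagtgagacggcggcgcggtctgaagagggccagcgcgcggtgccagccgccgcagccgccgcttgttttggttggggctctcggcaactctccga
Irs2, chr8:11008930-11009179, minus strand, CACGTG in capitals: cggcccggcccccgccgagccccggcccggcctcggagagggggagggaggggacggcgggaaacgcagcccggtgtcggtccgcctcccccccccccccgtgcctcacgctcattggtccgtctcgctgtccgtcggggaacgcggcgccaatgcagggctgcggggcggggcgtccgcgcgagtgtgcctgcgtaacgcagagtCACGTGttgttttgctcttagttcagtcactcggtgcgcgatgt
Akt2, start 4, chr7:27607086-27607335, plus strand, GAGGAA in capitals: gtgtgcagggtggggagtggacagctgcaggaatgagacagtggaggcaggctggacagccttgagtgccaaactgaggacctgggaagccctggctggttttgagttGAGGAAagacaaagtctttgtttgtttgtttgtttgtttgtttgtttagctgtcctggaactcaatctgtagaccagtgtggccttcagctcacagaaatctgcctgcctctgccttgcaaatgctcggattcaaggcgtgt
The first base of the E-box lies 115 bases before the start of Irs1 and 44 bases before that of Irs2, and the PU box letters begin 142 bases before start 4 of Akt2.

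At the top of the pathway, Insr encodes the insulin receptor (ENSMUSG00000005534, chr8:3122061-3279617, minus strand, GRCm38). Its level was 170.4, 204.4 and 154.2 CPM in control mice 1 to 3 and 218.4, 204.1 and 188.8 CPM in aPU.1KO mice 1 to 3. The groups overlapped, since control mouse 2 was above aPU.1KO mice 2 and 3. Insr had a log2 fold change of 0.21 (SE 0.12, 95% interval -0.08 to 0.50, edgeR adjusted p = 0.325), and this was 0.12 without control mouse 3 and 0.32 without control mouse 2. A difference beyond the spread between mice was therefore not detected, and the interval leaves room for a rise of up to 0.50 on the log2 scale.

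The receptor hands its signal to 2 major substrates. Irs1 (ENSMUSG00000055980, chr1:82233101-82291416, minus strand) is the docking protein most often tied to insulin action in fat. Irs1 lay at 49.56, 51.13 and 46.76 CPM in control mice, a narrow range, and at 83.60, 78.33 and 46.70 CPM in aPU.1KO mice. In aPU.1KO mice 1 and 2 it was above every control, while aPU.1KO mouse 3 was just below the lowest control. The log2 fold change of 0.50 (SE 0.21) had an unadjusted edgeR p of 0.0478 and an adjusted p of 0.191, and the log2 fold change was 0.34 without aPU.1KO mouse 1 and 0.72, with an adjusted p of 0.0603, without aPU.1KO mouse 3. Irs1 shares 2822 bases of exon with Gm9747 on the opposite strand, which held 127 counts over the 6 libraries against 10310 for Irs1.

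Irs2 (ENSMUSG00000038894, chr8:10984681-11008458, minus strand) encodes the other substrate, a docking protein whose gene is known as a FoxO target. Its level was 93.92, 127.2 and 75.91 CPM in control mice and 141.5, 153.6 and 130.0 CPM in aPU.1KO mice. All 3 aPU.1KO mice were above all 3 controls, with control mouse 2 close below the lowest of them. The log2 fold change was 0.52 (SE 0.19, 95% interval 0.08 to 0.96), with an adjusted p of 0.146 in edgeR and 0.0922 in DESeq2. Without control mouse 3 the log2 fold change was 0.35, and without control mouse 2 it was 0.73 with an edgeR adjusted p of 0.0252, so that 1 library decided on which side of the threshold Irs2 fell.

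Pik3r1 (ENSMUSG00000041417, chr13:101680563-101768217, minus strand) encodes p85 alpha and its shorter forms, the regulatory subunit that brings the catalytic subunit to the substrates. It lay at 230.2, 255.6 and 228.0 CPM in control and at 254.8, 448.5 and 218.5 CPM in aPU.1KO mice. The higher aPU.1KO mean rested on mouse 2, and the other 2 aPU.1KO mice were within or below the control range. The log2 fold change of 0.37 (SE 0.26, edgeR adjusted p = 0.410) was -0.01 without that mouse.

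Of the 2 Akt genes of the set, Akt2 (ENSMUSG00000004056, chr7:27591552-27640826, plus strand) encodes the isoform known for insulin-stimulated glucose uptake. It lay at 332.8, 386.9 and 364.6 CPM in control and at 424.7, 518.1 and 418.1 CPM in aPU.1KO mice, so the groups did not overlap. Its log2 fold change was 0.33 (SE 0.12, 95% interval 0.05 to 0.61), with an adjusted p of 0.145 in edgeR and 0.102 in DESeq2. A processed pseudogene, Akt2-ps, matches Akt2 at 98.62% identity over 1449 bases, but it held 5 counts in all against 70847 for Akt2.

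Akt1 (ENSMUSG00000001729, chr12:112653821-112674884, minus strand) encodes the isoform tied more to growth and survival. Its level was 74.16, 68.25 and 70.23 CPM in control mice and 53.26, 72.14 and 60.53 CPM in aPU.1KO mice. aPU.1KO mouse 2 lay within the control range and the other 2 below it. The log2 fold change was -0.19 (SE 0.12, 95% interval -0.47 to 0.08, edgeR adjusted p = 0.339), and it lay between -0.32 without aPU.1KO mouse 2 and -0.11 without aPU.1KO mouse 1. A difference beyond the spread between mice was thus not detected for Akt1.

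Tbc1d4 (ENSMUSG00000033083, chr14:101442360-101609191, minus strand) encodes AS160, the GTPase-activating protein that holds GLUT4 vesicles inside the cell until Akt phosphorylates it. It lay at 70.14, 84.84 and 55.76 CPM in control and at 93.46, 106.9 and 73.37 CPM in aPU.1KO mice. aPU.1KO mice 1 and 2 were above all controls, and aPU.1KO mouse 3 was below control mouse 2. Tbc1d4 had a log2 fold change of 0.38 (SE 0.19, 95% interval -0.07 to 0.83, edgeR adjusted p = 0.259), and this was 0.23 without control mouse 3 and 0.52 without control mouse 2.

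Slc2a4 (ENSMUSG00000018566, chr11:69942539-69948188, minus strand) encodes GLUT4, the insulin-responsive glucose transporter and a mark of mature fat and muscle cells. Its level was 151.4, 200.4 and 118.1 CPM in control mice and 259.1, 259.2 and 222.2 CPM in aPU.1KO mice. All 3 aPU.1KO mice lay above all 3 controls, and the controls were spread more widely (156.6 ± 41.4 CPM, SD, n = 3) than the aPU.1KO mice (246.9 ± 21.4 CPM, SD, n = 3). The log2 fold change was 0.66 (SE 0.19, 95% interval 0.20 to 1.11), with an adjusted p of 0.105 in edgeR and 0.0243 in DESeq2, which made Slc2a4 the 1 gene of the 10 that DESeq2 called. Leaving out single mice moved the edgeR log2 fold change between 0.48 and 0.86, and the call was made without control mouse 2 only (adjusted p = 0.0213).

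Slc2a1 (ENSMUSG00000028645, chr4:119108711-119137983, plus strand) encodes GLUT1, the transporter for basal uptake. It lay at 16.75, 15.76 and 16.30 CPM in control and at 21.90, 16.14 and 12.98 CPM in aPU.1KO mice. Control mice were within 1 CPM of each other, and aPU.1KO mice lay above, within and below them. Slc2a1 had a log2 fold change of 0.06 (SE 0.19, 95% interval -0.38 to 0.51, edgeR adjusted p = 0.858), and its sign turned when aPU.1KO mouse 1 was left out, to -0.17.

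Foxo1 (ENSMUSG00000044167, chr3:52268336-52353221, plus strand) encodes the transcription factor that Akt restrains. Its level was 114.7, 152.1 and 100.3 CPM in control and 136.8, 129.6 and 161.8 CPM in aPU.1KO mice. Control mouse 2 lay above 2 of the aPU.1KO mice, and the groups overlapped. Foxo1 had a log2 fold change of 0.22 (SE 0.17, 95% interval -0.18 to 0.62, edgeR adjusted p = 0.441), and this was 0.09 without control mouse 3 and 0.40 without control mouse 2.

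**Figure D2:**
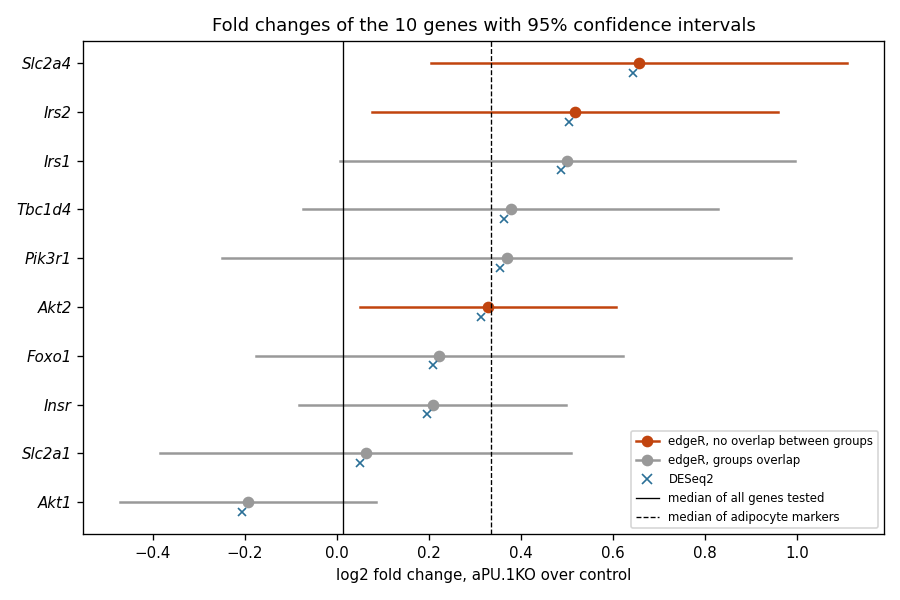
edgeR log2 fold changes, aPU.1KO over control, of the 10 genes with 95% confidence intervals (orange where the groups did not overlap, grey where they did), with the DESeq2 estimate as a cross beneath each. The solid line is the median of all genes tested (0.01) and the dashed line the median of the 10 adipocyte markers (0.33), which lies within the interval of 9 of the 10 genes, all but Akt1.

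Within each group, the same mouse was the highest for several of these genes. Control mouse 2 was the highest control for 8 of the 10 genes, all but Akt1 and Slc2a1. Among aPU.1KO mice, mouse 2 was the highest for 6 genes: Irs2, Pik3r1, Akt1, Akt2, Tbc1d4 and Slc2a4. Control mouse 2 also had the lowest macrophage marker level of the controls, with a sum over 15 markers of 645.3 CPM against 1918 and 1865 CPM in control mice 1 and 3. All 3 aPU.1KO mice lay lower still, at 431.0, 342.5 and 444.9 CPM. The median log2 fold change of these markers was -2.01, and DESeq2 called 13 of the 15 lower and edgeR 1 (Mrc1). In bulk samples, fewer cells of a type and less RNA per cell cannot be told apart, and the part of the macrophage difference in the values of the 10 genes was not tested.

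The adipocyte markers moved the other way. Their sum over 10 genes, Adipoq, Plin1, Cidec, Lep, Fabp4, Pparg, Lipe, Pnpla2, Lpl and Cfd, was 42280, 45710 and 43630 CPM in control and 54850, 58640 and 51580 CPM in aPU.1KO mice. The groups did not overlap. Lpl and Fabp4 were the largest parts of the sum, with control means of 16670 and 10100 CPM. The log2 fold changes of the 10 markers ran from -0.77 (Lep) to 1.71 (Cfd). DESeq2 called 6 of the 10 higher and 0 lower, edgeR called 0 (7 higher and 1 lower reached an unadjusted p under 0.05), and 9 of 10 were higher in sign, Lep being lower. Markers of other cell types were lower in median: progenitors and fibroblasts by -0.88 (DESeq2 called 6 of 10 lower), endothelial cells by -0.52 (1 of 8), smooth muscle cells and pericytes by -0.48 (3 of 6), lymphocytes by -0.69 (0 of the 4 tested) and mesothelial cells by -0.45 (0 of the 6 tested). Erythroid markers had a median of 0.26 with 0 of 5 called, liver secretory genes one of -2.99 with 9 of 10 lower, and 1 of the 7 epididymis and testis genes passed the filter.

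The 10 genes were therefore also expressed per 1000 CPM of the summed adipocyte markers, a scaling chosen after seeing the data. On this scale Slc2a4 was 3.58, 4.38 and 2.71 in control and 4.73, 4.42 and 4.31 in aPU.1KO mice. The groups then overlapped, because control mouse 2 lay between aPU.1KO mice 2 and 3, and the log2 difference was 0.36. Irs2 and Akt2 overlapped as well, with log2 differences of 0.22 and -0.0019. Akt1 was 1.75, 1.49 and 1.61 in control and 0.97, 1.23 and 1.17 in aPU.1KO mice, lower in every aPU.1KO mouse, with a log2 difference of -0.53. In all, 4 of the 10 genes lay above 0 and 6 below, and 0 genes were higher and 1 lower without overlap. Over all genes tested on this scale, 1.74% were higher and 48% lower without overlap. The marker sum differed by 0.33 on the log2 scale between the groups, so the scaling lowers every gene by about that much, and the signs on this scale follow from the size of the fold changes given before. With the mean log2 macrophage marker level as a covariate in edgeR, 4 of the 10 genes were higher and 6 lower in sign, with log2 fold changes of 0.05 for Slc2a4 and 0.05 for Akt2, and with the adipocyte marker level 1 was higher and 9 were lower. Neither marker level overlapped between the groups, so that marker level and genotype cannot be told apart in these 6 libraries.

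Ratios between related genes within a library do not depend on library scaling. The 7 ratios were taken on counts per kilobase of exon and compared by an exact two-sided permutation test of 3 against 3 mice, for which 0.1 is the smallest p possible. The ratio of Akt2 to Akt1 was 2.58, 3.26 and 2.98 in control and 4.58, 4.13 and 3.97 in aPU.1KO mice. Every aPU.1KO mouse was above every control, and the ratio was 1.44-fold higher in aPU.1KO (exact permutation p = 0.1, adjusted p = 0.35 over 7 ratios).

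The ratio of Tbc1d4 to Tbc1d1, a related Rab GTPase-activating protein better known from muscle, was 2.54, 3.69 and 2.14 in control and 6.16, 5.03 and 4.20 in aPU.1KO mice. It did not overlap either and was 1.86-fold higher in aPU.1KO (exact permutation p = 0.1, adjusted p = 0.35). Tbc1d1 was itself lower without overlap (log2 fold change -0.51, SE 0.15), while Tbc1d4 was higher by 0.38 with overlapping groups. Both ratios thus reached the smallest p that this design allows, and neither passed a threshold of 0.05, which no ratio could.

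GLUT4 over GLUT1, that is Slc2a4 over Slc2a1, was 9.12, 12.8 and 7.30 in control and 11.9, 16.2 and 17.3 in aPU.1KO mice, and overlapped in 1 pair of mice (exact permutation p = 0.2). Foxo1 over Foxo3 was 1.77 ± 0.48 in control and 2.33 ± 0.23 in aPU.1KO mice (SD, n = 3, exact permutation p = 0.2). Insr over Igf1r, the related receptor for insulin-like growth factor, was 10.9 to 12.9 in control mice and 11.8 to 20.5 in aPU.1KO mice (exact permutation p = 0.5). Irs1 over Irs2 was 0.36 ± 0.07 and 0.34 ± 0.08 (SD, n = 3, exact permutation p = 0.7). Pik3r1 over the sum of Pik3ca, Pik3cb and Pik3cd, which encode catalytic subunits, was 1.02 ± 0.04 and 1.19 ± 0.32 (SD, n = 3, exact permutation p = 0.8).

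**Figure D3:**
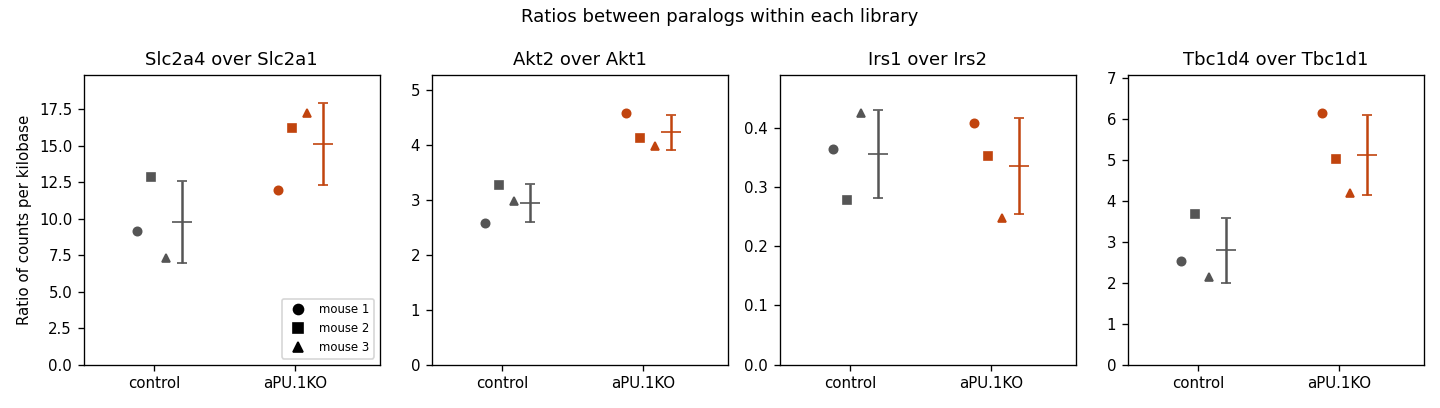
Within-library ratios of counts per kilobase (linear axes from 0) for 4 pairs of related genes in 3 control mice (grey) and 3 aPU.1KO mice (orange), with group mean and SD. The Akt2 to Akt1 and Tbc1d4 to Tbc1d1 ratios did not overlap between the groups and were higher in aPU.1KO, and the other pairs overlapped.

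Levels can be compared between genes per kilobase of exon. On this scale, averaged over the 6 libraries, Slc2a4 (58.0 CPM per kb) and Akt2 (57.2 CPM per kb) led the 10 genes and lay at the same percentile, 94.6, of all genes tested. Slc2a4 was above Akt2 in all 3 aPU.1KO mice and in 1 of the 3 controls, so their order differed between the groups. Pik3r1 followed at 27.1 CPM per kb and was below Akt2 and above Irs2 in all 6 libraries.

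Irs2 (19.0 CPM per kb), Akt1 (16.2) and Foxo1 (15.3) were not separated from their neighbours in every library, Irs2 being above Akt1 in 4 of 6, Akt1 above Foxo1 in 3 of 6 and Foxo1 above Insr in 5 of 6. Insr (13.8 CPM per kb), Tbc1d4 (10.5), Irs1 (6.49) and Slc2a1 (4.75) came last, each above the next in all 6 libraries. Slc2a1 thus lay near the middle of all genes tested, at percentile 52.7. The order depends on the length used: with the longest transcript in place of all exons, the control level moved by more than the SD between mice for Insr, Pik3r1, Akt1, Akt2 and Slc2a1. By that length Akt2 led Slc2a4 in both group means, at 79.5 against 49.1 CPM per kb in control and 99.8 against 77.3 CPM per kb in aPU.1KO mice.

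**Figure D4:**
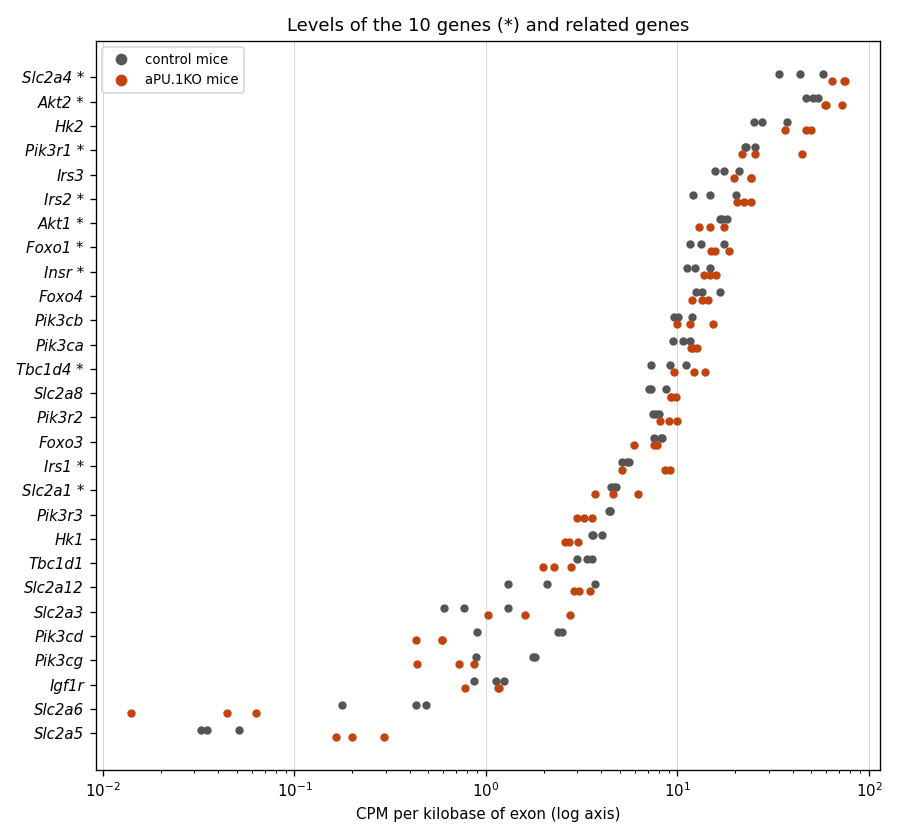
Levels in CPM per kilobase of exon (logarithmic axis) in each of the 3 control (grey) and 3 aPU.1KO (orange) mice for the 10 genes, marked by asterisks, and for related receptors, substrates, kinase subunits, transporters and hexokinases. Slc2a4 and Akt2 stand at the top, Slc2a1 among the lower of the 10 genes, and Slc2a5 and Slc2a6 at the bottom of all.

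The rest of the pathway was described through 13 lists by role, which hold 160 names, of which 159 were matched and 152 were tested. No gene of these lists was called by edgeR. An unadjusted edgeR p under 0.05 was reached by 25 higher and 21 lower genes (11.9% and 13.7% over all genes tested). DESeq2 called 10 of the 152 genes higher (6.58%, against 3.51% of the 16684 genes with a DESeq2 adjusted p). It called 18 lower (11.8%, against 7.48%). Without overlap, 21 (13.8%) were higher and 28 (18.4%) lower, against 16.7% and 15.5% of all genes tested. The median log2 fold change was 0.04. The genes named below were taken from the 2 with the smallest edgeR p in each list. Beyond these, Pik3r5, Pik3cg, Pik3ca, Pik3r2, Ppp1r3b, Ptpn1, Enpp1, Grb14, Hk2, Hk3 and Txnip were chosen after their values were seen.

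Among receptors and ligands (4 tested, median log2 fold change -0.12), Igf2r, which clears insulin-like growth factor 2 and sorts lysosomal enzymes, was 137.0 to 166.1 CPM in control and 88.7 to 118.3 CPM in aPU.1KO mice. Its log2 fold change was -0.47 (SE 0.13), and DESeq2 called it lower (adjusted p = 0.0297). Igf1, the growth factor itself, had a log2 fold change of -0.17 (SE 0.14) with overlapping groups.

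Of the 12 adaptors tested (median 0.02), Sh2b2, which encodes the adaptor APS that binds the activated insulin receptor, was 31.5 to 34.9 CPM in control and 37.7 to 82.9 CPM in aPU.1KO mice. Its log2 fold change was 0.81 (SE 0.27, adjusted p 0.125 in edgeR and 0.0400 in DESeq2). Cbl, a ubiquitin ligase that APS brings to the receptor, went the other way, from 83.6 to 102.8 CPM in control to 62.2 to 75.8 CPM in aPU.1KO mice (log2 fold change -0.41, SE 0.11, DESeq2 adjusted p = 0.0347). DESeq2 called 1 adaptor in each direction.

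The 10 subunits of phosphoinositide 3-kinase other than Pik3r1 had a median of -0.56, the lowest of the 13 lists, and DESeq2 called 4 lower and 0 higher. Pik3cd, a catalytic subunit known from leukocytes, was 15.6, 5.60 and 15.0 CPM in control mice and 3.71, 2.71 and 3.69 CPM in aPU.1KO mice (log2 fold change -1.84, SE 0.40). Control mouse 2 was the lowest control for it, as it was for the sum of the macrophage markers. The leukocyte subunits Pik3r5 (-2.24, SE 0.63) and Pik3cg (-1.14, SE 0.35) were also lower on the log2 scale, again with control mouse 2 the lowest control. The part of the macrophage difference in these values was not tested. For the regulatory subunit Pik3r3 the controls were close together, with 23.2 to 23.6 CPM in the 3 controls and 15.8 to 19.1 CPM in aPU.1KO mice (log2 fold change -0.43, SE 0.10, DESeq2 adjusted p = 0.00732). Of the 10 subunits, 2 were higher and 5 lower without overlap. The 2 higher were the widely expressed Pik3ca (0.20, SE 0.09) and Pik3r2 (0.22, SE 0.10), which were called by neither tool.

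In the list around Akt activation (8 tested, median 0.03), Pdpk1, the kinase PDK1 that phosphorylates Akt, was 95.7 to 134.5 CPM in control and 126.3 to 138.9 CPM in aPU.1KO mice. The groups overlapped, and its log2 fold change was 0.21 (SE 0.13, edgeR adjusted p = 0.343).

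Downstream of Akt, the mTORC1 arm (10 tested, median 0.09) had 1 DESeq2 call, Eif4ebp1, a repressor of translation initiation that mTORC1 inactivates. It was 136.9, 178.3 and 124.9 CPM in control and 218.9, 224.9 and 205.2 CPM in aPU.1KO mice (log2 fold change 0.56, SE 0.14, DESeq2 adjusted p = 0.0117). Rps6kb2, an S6 kinase, had 0.30 (SE 0.11), also without overlap, and was called by neither tool.

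The glycogen arm (10 tested, median 0.38) was the list with the highest median, and DESeq2 called 3 genes higher and 0 lower. Gbe1, the branching enzyme, was 87.6 to 115.3 CPM in control and 123.2 to 200.9 CPM in aPU.1KO mice (log2 fold change 0.70, SE 0.19, DESeq2 adjusted p = 0.0146). Pygl, a glycogen phosphorylase and so an enzyme of breakdown, was 123.2 to 221.2 CPM in control and 227.8 to 333.8 CPM in aPU.1KO mice (0.81, SE 0.24, DESeq2 adjusted p = 0.0186). Ppp1r3b, a glycogen-targeting subunit of protein phosphatase 1, was also called by DESeq2 (adjusted p = 0.0395), with 18.1, 27.1 and 15.1 CPM in control and 19.4, 58.6 and 61.2 CPM in aPU.1KO mice, so that aPU.1KO mouse 1 stayed within the control range. The list thus held enzymes of both synthesis and breakdown among the genes called.

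In the antilipolysis arm of 3 genes (median 0.24), Pde3b, the phosphodiesterase through which insulin lowers cyclic AMP in fat cells, was 411.1, 547.7 and 356.3 CPM in control and 688.0, 792.0 and 515.3 CPM in aPU.1KO mice. aPU.1KO mouse 3 lay below control mouse 2, and the log2 fold change of 0.60 (SE 0.21) was called by neither tool (adjusted p 0.143 in edgeR and 0.0631 in DESeq2). Its relative Pde3a, at 6.62 to 10.4 CPM in control and 2.80 to 5.52 CPM in aPU.1KO mice, was called lower by DESeq2 (log2 fold change -1.17, SE 0.30, adjusted p = 0.00424).

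Among FoxO factors and genes known as FoxO targets (14 tested, median 0.05), DESeq2 called 2 higher and 0 lower. Pck1, the enzyme of glyceroneogenesis in fat, was 1125, 1614 and 946.8 CPM in control and 2633, 2074 and 2143 CPM in aPU.1KO mice (log2 fold change 0.89, SE 0.22, DESeq2 adjusted p = 0.00196). Klf15, a transcription factor known to raise Slc2a4, was 53.2 to 61.9 CPM in control and 71.8 to 82.0 CPM in aPU.1KO mice (0.43, SE 0.09, DESeq2 adjusted p = 0.0127). For both genes the lowest aPU.1KO mouse lay above the highest control.

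Of the 20 brakes on the pathway (median -0.09), 9 were higher and 11 lower in sign. DESeq2 called 5 lower and 0 higher. Inpp5d, the lipid phosphatase SHIP1 of blood cells, was 22.4, 7.75 and 22.1 CPM in control and 2.80, 3.07 and 5.73 CPM in aPU.1KO mice (log2 fold change -2.18, SE 0.47), with control mouse 2 again the lowest control. Ptprj, a receptor tyrosine phosphatase, was 51.8, 31.2 and 50.7 CPM in control and 18.3, 14.2 and 25.0 CPM in aPU.1KO mice (-1.22, SE 0.27).

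DESeq2 also called Ptpn1, the insulin receptor phosphatase PTP1B, lower (log2 fold change -0.39, SE 0.12, adjusted p = 0.0435), at 39.8 to 48.5 CPM in control and 31.2 to 38.1 CPM in aPU.1KO mice. The remaining 2 were the receptor inhibitors Enpp1 (-1.76, SE 0.47) and Grb14 (-0.67, SE 0.22), of which Grb14 overlapped. Control mouse 2 was the lowest control for all 5 of these genes.

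For vesicle traffic, the RabGAPs and small GTPases (19 tested, median 0.05) had 1 DESeq2 call, Tbc1d1, at 22.2 to 26.7 CPM in control and 14.6 to 20.5 CPM in aPU.1KO mice (log2 fold change -0.51, SE 0.15, adjusted p = 0.0280). Rab4a, an endosomal GTPase, had 0.58 (SE 0.23) with overlapping groups. The GLUT4 vesicle and fusion genes (26 tested, median -0.03) also had 1 DESeq2 call, Lrp1, a large endocytic receptor found in these vesicles and in macrophages and fibroblasts, at 825.8 to 1028 CPM in control and 513.1 to 677.4 CPM in aPU.1KO mice (-0.58, SE 0.15, adjusted p = 0.00458). Aspscr1, the tether TUG that holds the vesicles back, was 35.5 to 38.8 CPM in control and 41.8 to 46.1 CPM in aPU.1KO mice (0.24, SE 0.08, DESeq2 adjusted p = 0.135). In this list 4 genes were higher and 4 lower without overlap.

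The glucose transporters other than GLUT4 and GLUT1 (9 tested, median 0.28) included 2 DESeq2 calls at very low counts. Slc2a5, the fructose transporter, had 8, 4 and 3 counts in control and 11, 15 and 21 counts in aPU.1KO mice (DESeq2 adjusted p = 0.00523). Slc2a6, a transporter known from myeloid cells, had 114, 13 and 35 counts in control and 4, 1 and 3 counts in aPU.1KO mice (DESeq2 adjusted p = 0.00155), and control mouse 2 held the fewest of the controls. No fold is given for either.

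At hexose phosphorylation and the control of uptake (7 tested, median 0.07), Mlxipl, the carbohydrate-responsive factor ChREBP, was 41.6, 44.3 and 45.7 CPM in control and 58.7, 75.7 and 64.2 CPM in aPU.1KO mice. Its log2 fold change was 0.60 (SE 0.11, adjusted p 0.0725 in edgeR and 0.000637 in DESeq2). Hk1, the hexokinase of basal glucose use, was 30.7 to 34.4 CPM in control and 22.0 to 25.9 CPM in aPU.1KO mice (-0.44, SE 0.10, DESeq2 adjusted p = 0.00636). Hk2, the insulin-responsive hexokinase, was also measured at 164.7, 223.3 and 150.2 CPM in control and 216.8, 278.4 and 296.5 CPM in aPU.1KO mice, with overlapping groups (0.56, SE 0.18, DESeq2 adjusted p = 0.0580). DESeq2 called 2 genes of the list higher and 2 lower. Hk3, a hexokinase known from myeloid cells, was called lower (DESeq2 adjusted p = 0.0208), at 27.9, 4.20 and 28.9 CPM in control and 2.44, 0.59 and 3.79 CPM in aPU.1KO mice, with control mouse 2 the lowest control as for the sum of the macrophage markers. Txnip, an arrestin-like protein that lowers GLUT4 and GLUT1 at the cell surface, was also called higher by DESeq2 (0.42, SE 0.14, adjusted p = 0.0474).

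**Figure D5:**
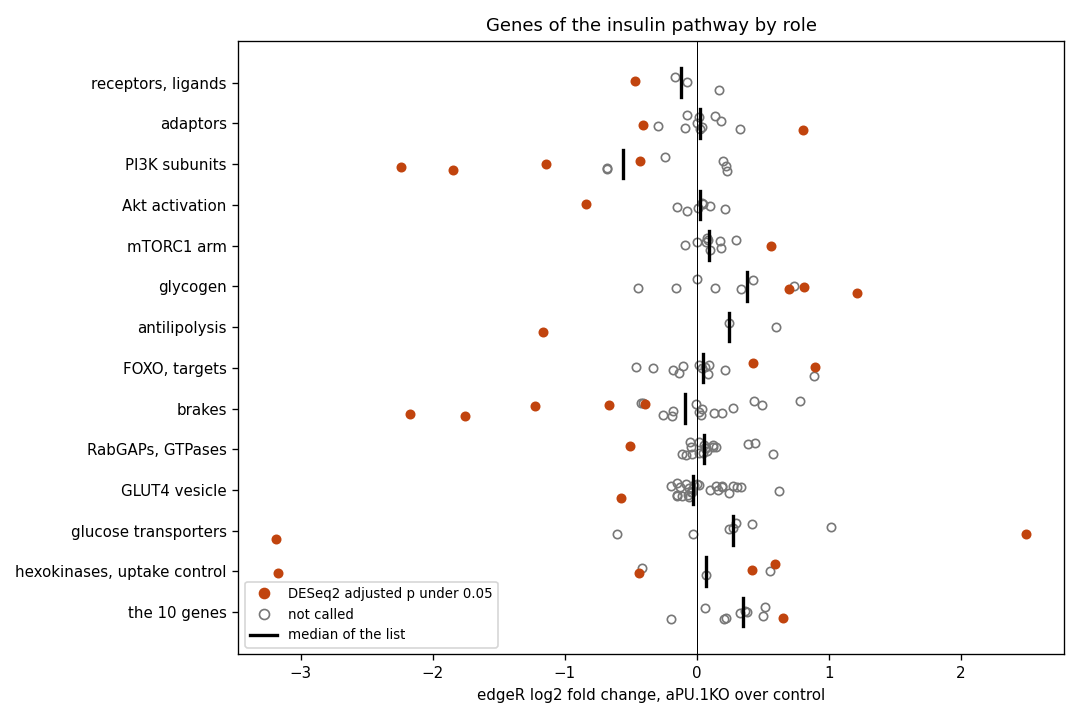
edgeR log2 fold changes, aPU.1KO over control, of the tested genes of 13 role lists and of the 10 genes (bottom row), each point a gene, filled where the DESeq2 adjusted p was under 0.05, with a bar at each list's median. The medians lie between -0.56 (subunits of phosphoinositide 3-kinase) and 0.38 (glycogen arm), and the 10 genes have a median of 0.35.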

How the data were processed

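RNA from isolated epididymal adipocytes of 3 control and 3 aPU.1KO mice was sequenced, and the authors deposited estimated counts per gene (Salmon, GRCm38, with FastQC for quality, per the submitters' processing notes). The counts were whole numbers and were used as deposited. The Salmon version, the annotation and whether counting used strand are not given in the sources used here. Of 35122 gene identifiers, 35031 were matched to symbols in GENCODE M21, and the rest held 0.0367% of counts. Library totals were 20550252 to 69283842 counts.

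Genes passing filterByExpr (13925) were fitted in edgeR 4.0.16 (R 4.3.3) with TMM scaling and the quasi-likelihood test, with adjusted p-values by Benjamini-Hochberg over all genes tested and a threshold of 0.05. DESeq2 (the tool named by the study, run here in version 1.42.0) and limma-voom (limma 3.58.1) were alternatives, with other scalings, filters, dispersion settings, markers as covariates and each mouse left out. Lengths per kilobase were the union of exons in GENCODE M21. Similar transcripts were found with BLAST 2.17.0.

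Mice were numbered 1 to 3 within a group in order of deposit. The genes and lists were chosen with earlier results of these data known. Genes named were all 10 genes and, in each role list, the 2 with the smallest edgeR p where edgeR called none. Of these, 1 gene is not reported here. Replicates were separate mice.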

Additional observations from a re-analysis of the deposited data

How the results depend on the processing

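No paired analysis was possible because the mouse numbers in the labels are not shared between the groups. Controls were littermates by the methods of the study, but the labels do not say which mice shared a litter. DESeq2 called 1 of the 10 genes higher (edgeR 0) and 10 role genes higher and 18 lower (edgeR 0). When single mice were left out, the genes called higher numbered 0 to 2, role genes called higher 0 to 8 and lower 0 to 10, genes higher without overlap 3 to 6 and lower without overlap 0 to 1 (over all genes tested, 16% to 25% higher and 16.6% to 24.7% lower). For the 10 genes and the role genes the upper ends came without control mouse 2, where edgeR called 202 genes higher and 991 lower among all genes, except that Akt1 was lower without overlap when aPU.1KO mouse 2 was left out. Without control mouse 1 the lowest edgeR adjusted p among the 10 genes was 0.383. Leaving out mice turned the sign of Slc2a1 (log2 fold change -0.17 to 0.23), Pik3r1 (-0.011 to 0.57), the log2 ratio Irs1 over Irs2 (-0.26 to 0.11) and Pik3r1 over its catalytic subunits (-0.028 to 0.32). Scaled to the adipocyte markers, chosen after seeing the data like the 2 covariates that follow, 0 genes were higher and 1 lower without overlap. With the macrophage marker score as covariate the log2 fold changes were -0.14 for Insr, -0.12 for Irs2, -0.13 for Pik3r1, -0.17 for Tbc1d4, -0.22 for Foxo1 and -0.19 for Akt1, and 0.05 for Slc2a4, 0.05 for Akt2, 0.30 for Irs1 and 0.15 for Slc2a1. With the adipocyte marker score they were -0.25 for Insr, -0.37 for Irs1, -0.29 for Irs2, -0.93 for Pik3r1, -0.17 for Akt2, -0.58 for Tbc1d4, -0.12 for Slc2a4, -0.20 for Slc2a1, -0.34 for Akt1 and 0.04 for Foxo1. Neither score overlaps between the groups, and SEs were 0.20 to 0.54, so the score and the genotype cannot be told apart. The cause of the other differences was not tested. Other scalings and filters, limma-voom, other dispersion settings and thinning of control mouse 1 kept every direction and made no call among the 10 genes.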
